A study of Solanum lycopersicum with 6 samples.

Results

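Early and prolonged heat were compared by setting the 2 RNA-seq libraries of tomato leaves after 6 h at 45 °C against the 2 libraries taken after 1 h. The members are the genes that held at least 50 counts in at least 2 of the 6 libraries of the series, which 19123 of the 35603 genes in the table did. All plants belonged to Solanum lycopersicum, cultivar M82, for which the labels name no mutant allele or transgene. They were 4 weeks old and had been kept at 24 °C under days of 16 h of light. RNA came from the fourth leaves, and each replicate was a pool of plants. The libraries before heat (0 h) had the same cultivar, age and growth conditions and served here to place each gene's level at 1 and 6 h. No unheated plants sampled alongside the heated ones were analysed here, so length of heat and the 5 h between the samplings, with the time of day that goes with them, cannot be told apart. The files give genes as Solyc identifiers without names. None of these identifiers (0 of 35603) could be matched to the reference table of 41476 tomato genes, so genes are given by identifier or position, their functions are left out except for an actin gene that the study names, and the labelled tissue was not checked against leaf markers.

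Heat acts on a leaf within minutes. Heat shock transcription factors (HSFs) bind the promoters of genes for chaperones and of further HSFs, and their transcripts build up quickly. Chaperones bind unfolded proteins and also bind HSFs, which damps the first response when heat goes on, while slower changes in metabolism, growth and membrane composition take place. The comparison of 6 h with 1 h asks which transcripts belonged to the first phase and which took their place.

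Depth lay between 25147160 and 30738632 counts per library. Replicates differed by more than counting error at each time. On the log2 scale, differences between replicates had an SD over genes of 0.18 for 1 h, the closest pair, of 0.29 for 6 h and of 0.35 for 0 h. The factors that scaled the libraries by the trimmed mean of M-values (TMM) were 0.884 and 0.866 at 1 h against 1.14 and 1.22 at 6 h. The scaling therefore bears on the direction of small changes. A log2 fold change below is 6 h against 1 h unless another pair of times is named, and CPM are counts scaled to a depth of 1000000 and corrected by the TMM factor.

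The 2 heat times differed in most of the measured leaf transcriptome. By the quasi-likelihood test of edgeR with Benjamini-Hochberg adjusted p below 0.05, 12688 genes (66.3% of those tested) were called. Of these, 6633 (34.7% of those tested) rose from 1 h to 6 h and 6055 (31.7%) fell. The median size of the log2 fold change of called genes was 0.97. Over all tested genes the median log2 fold change was 0.06. How rises and falls were balanced depended on the scaling. Rises made up 52.3% of calls with TMM factors, 65.1% with upper-quartile factors and 74.3% with scaling to the total count, which moved the median of all genes to 0.29 and 0.48, respectively. With factors by relative log expression (RLE) and with DESeq2, the tool of the study, they made up 49.0% and 48.6%. Falls were thus the majority there, and the median was 0.007 in both. With 2 libraries a time, CPM did not overlap between 1 h and 6 h in 8634 genes that were higher at 6 h (45.1%) and in 7738 that were lower (40.5%).

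Large changes were mostly falls. A log2 change of at least 1 was found for 3323 rises (17.4% of tested genes) and 2790 falls (14.6%). At a log2 change of at least 2 the order turned, with 870 rises (4.55%) and 1036 falls (5.42%). At a log2 change of at least 3 there were 193 rises (1.01%) and 546 falls (2.86%), and at 4 or more there were 53 rises (0.277%) and 300 falls (1.57%). A change of at least 5 was reached by 11 rises (0.0575%) and 177 falls (0.926%), and a change of at least 6 by 3 rises (0.0157%) and 100 falls (0.523%). Scaling to the total count brought the counts at a change of at least 3 close together, with 374 rises and 413 falls, and at a change of at least 5 it gave 25 rises and 135 falls. Some of the largest fitted changes rest on libraries with almost no reads. Both 6 h libraries held at most 3 counts in 69 of the 177 falls of at least 5, and both 1 h libraries did in 7 of the 11 rises. Without such genes 108 falls and 4 rises of that size were left.

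**Figure D1:**
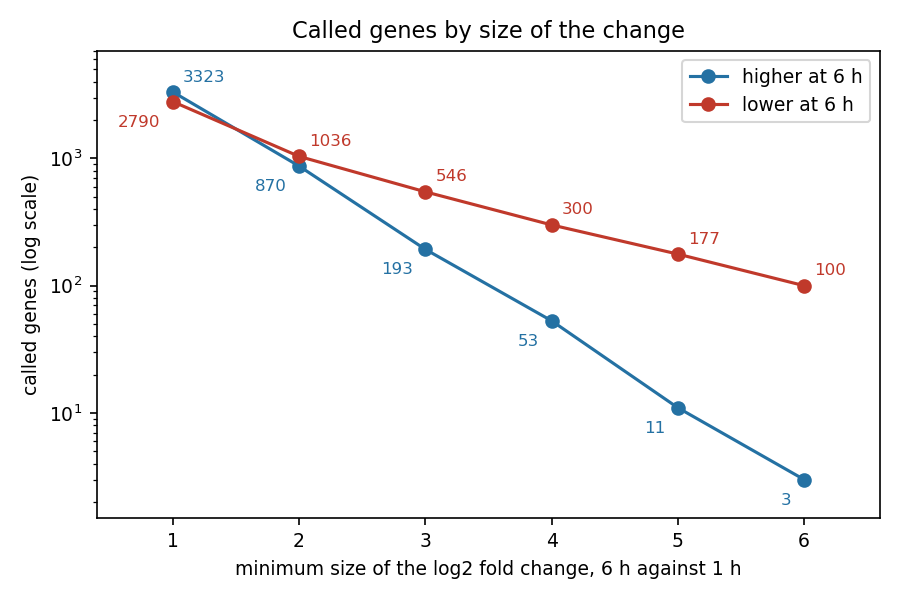
Number of called genes (y axis, log scale) whose log2 fold change between 6 h and 1 h was at least the size on the x axis, for genes higher (blue) and lower (red) at 6 h. With TMM factors, rises outnumbered falls at a size of 1 (3323 against 2790). Falls outnumbered rises from a size of 2 on, up to 100 against 3 at a size of 6. The size at which the order turned was not examined with other scaling.

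The genes with large falls were those with high levels at 1 h and low levels on either side of it. The 177 genes that fell by at least 5 had median CPM of 0.534, 15.9 and 0.182 at 0, 1 and 6 h, in this order. Among the 369 genes that fell by 3 to 5 the medians were 3.67, 38.4 and 2.87 CPM. For the 2244 genes that fell by 1 to 3 they were 25.2, 59.8 and 19.6 CPM. In each of these sets the median at 6 h was thus below that at 0 h. These sets were formed by the 1 h and 6 h values, so the levels are a description. Of the 546 genes that fell by at least 3, 11 reached 100 CPM at 0 h, 170 did at 1 h and 15 at 6 h. A mean of 1000 CPM was reached by 38 of them at 1 h and by 0 at either other time.

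The genes with large rises had the mirror order, with smaller steps in CPM. The 182 genes that rose by 3 to 5 had median CPM of 4.05, 0.671 and 7.15 at 0, 1 and 6 h. For the 3130 genes that rose by 1 to 3 the medians were 7.88, 4.15 and 12.2 CPM. The 11 genes that rose by at least 5 had medians of 4.19, 0.0737 and 4.55 CPM. In each set of rises the median at 1 h was below that at 0 h. As the 1 h and 6 h values formed the sets, which favours genes that are low at 1 h, this order is a description. Of the 193 genes that rose by at least 3, 9 reached 100 CPM at 0 h, 0 at 1 h and 23 at 6 h.

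Genes that fell held a large part of the reads at 1 h. The genes called lower at 6 h took 58.8% and 59.1% of all counts at 1 h. Their share was 31.2% and 31.9% in the libraries of 6 h, and 39.9% and 38.0% before heat. The 546 genes with falls of at least 3 alone took 12.3% and 12.6% of counts at 1 h, against 0.722% and 0.956% at 6 h and 0.851% and 0.699% at 0 h. The genes called higher at 6 h took 12.3% and 12.2% of counts at 1 h and 30.7% and 31.5% at 6 h. The 193 genes with rises of at least 3 took 0.0529% and 0.0492% at 1 h and 0.885% and 0.828% at 6 h. In these sums the 1 h and 6 h libraries did not overlap, which follows from how the sets were formed. The 100 genes with the most counts in each library took 16.7% and 17.3% of counts at 1 h but 13.1% and 11.6% at 6 h, with 16.2% and 15.8% at 0 h. A level of 1000 CPM per kb of gene span was reached by 67 and 68 genes at 1 h, by 36 and 26 genes at 6 h, and by 63 and 59 genes at 0 h.

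In read share, losses were held by few genes and gains were spread over many. For this measure counts were scaled to 1000000 per library, so that losses and gains balance. The TMM factors were lower at 1 h than at 6 h, so a gene with no change by TMM gained read share. The spread of the gains over many genes was thus in part given by the scaling. The measure was not repeated with TMM factors. From 1 h to 6 h, 27.7% of the counts passed from genes that lost to genes that gained. Of the loss, 50% was held by 167 genes, whereas 1117 genes made up 50% of the gain. Across the 4 ways to pair a 1 h with a 6 h library these numbers were between 165 and 177 genes for the loss and between 940 and 1276 genes for the gain. The 20 genes with the largest losses made up 19.8% of the whole loss, and the 20 with the largest gains 5.45% of the whole gain.

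**Figure D2:**
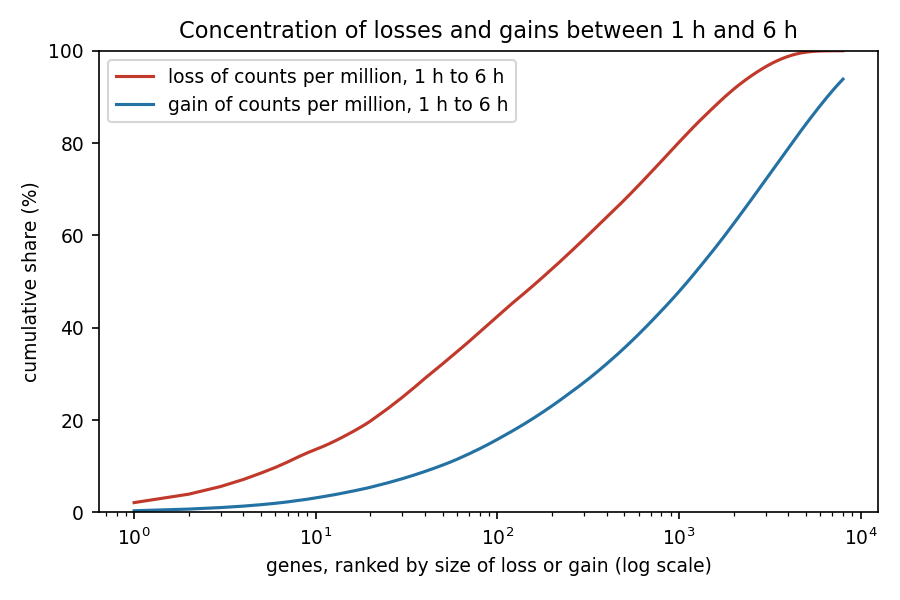
Cumulative share of all losses (red) and of all gains (blue) in CPM scaled to the total count from 1 h to 6 h (y axis, %), with genes ranked by the size of the loss or gain on the x axis (log scale). The loss curve lies above the gain curve throughout, and 167 genes reach 50% of the loss against 1117 genes for 50% of the gain. With this scaling 8225 genes lost and 18486 gained, as genes with no change by TMM also gained.

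The 20 genes with the largest losses were mostly transcripts of the first hour. As a sum they held 0.195% and 0.176% of counts before heat, then 5.68% and 5.96% after 1 h, and 0.294% and 0.404% after 6 h. Their log2 fold changes lay between -6.70 and -2.75 with a median of -5.03, all 20 were called, and 17 of them were under 100 CPM at 0 h. The 20 genes with the largest gains were of another kind. They held 1.43% and 1.41% of counts before heat, then 1.17% and 1.20% after 1 h, and 2.72% and 2.67% after 6 h. Their log2 fold changes, which use TMM factors, lay between -0.0003 and 4.38 with a median of 0.96, so that a gain in read share was not always a rise. Of these genes, 16 of the 20 were called, beside 66.3% of all tested genes, and 1 was under 100 CPM at 0 h. All but 1 of the genes with the largest gains thus had reads at this level before heat. Both sets were picked by the size of their change in read share from 1 h to 6 h. The order of their sums at 1 h and 6 h was fixed by this choice. The falls and calls of the genes with the largest losses were largely fixed too. Calls among the genes with the largest gains were favoured by it.

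At 6 h some transcripts were at the limit of detection. In 73 tested genes neither 6 h library held more than 3 counts. This is the upper limit given by a count of 0, amounts to 0.0933 and 0.0872 CPM in these libraries and covers counting error only. Of these, 71 were called, and 13 had a mean over 10 CPM at 1 h. Both 0 h libraries were also at or under 3 counts in 30 of the 73. These 30 genes, which were seen only at 1 h, had between 2.24 and 35.8 CPM there with a median of 5.05 CPM, spanned 246 to 5728 bp and lay on 10 chromosomes. As they passed the filter on counts only through the 1 h libraries, they had to differ, and their number is a description. In the opposite direction, both 1 h libraries held at most 3 counts in 13 tested genes, of which 12 were called and 1 was also at that limit at 0 h. The calls of these 13 genes were largely fixed in the same way.

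The identifiers that the study itself names were followed in each library. Solyc03g078400.3, on chromosome 3, codes for an actin, a cytoskeletal protein whose transcript served as reference for quantitative PCR. It had 818 and 720 CPM before heat, 709 and 718 CPM after 1 h and 549 and 506 CPM after 6 h. Both 6 h libraries were below all others. The log2 fold change from 1 h to 6 h was -0.44 (SE 0.145, edgeR adjusted p = 0.0260), and it was -0.01 (adjusted p = 0.932) with scaling to the total count and -0.21 (adjusted p = 0.207) with upper-quartile factors. The fall of actin thus depended on the scaling, and it was also not called without 1 h replicate 1 (-0.45, adjusted p = 0.142) or without 1 h replicate 2 (-0.43, adjusted p = 0.158), where its size hardly moved.

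Solyc09g074475.1, whose contact with an enhancer was assayed in the study, lies at chr9:62649309-62650158 of the M82 assembly on the plus strand. It had 0.584 and 0.401 CPM before heat, 74.8 and 91.1 CPM after 1 h and 1.56 and 3.55 CPM after 6 h. The 3 times did not overlap, and the 6 h libraries lay near the 0 h libraries on the scale of the 1 h value. The level at 6 h was 32.2-fold lower than at 1 h (log2 fold change -5.01, SE 0.298, edgeR adjusted p = 3.90e-06). Against 0 h it was still higher at 6 h, by 2.38 on the log2 scale (SE 0.473, edgeR adjusted p = 0.00291).

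Solyc09g015000.4 (chr9:7536107-7537148, plus strand) is a gene of a chromosome conformation capture assay of the study, if the identifier given there, which is a digit shorter, is read as this one. It had 7.01 and 7.63 CPM before heat, 2188 and 2254 CPM after 1 h and 48.0 and 85.3 CPM after 6 h. As a ratio, the replicates at 1 h lay close together, and those at 6 h differed more than those of the other times. The log2 fold change from 1 h to 6 h was -5.06 (SE 0.288, edgeR adjusted p = 3.26e-06). What remained at 6 h was 3.19 on the log2 scale above 0 h (SE 0.280, edgeR adjusted p = 4.82e-05).

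Solyc03g026270.3 (chr3:3679642-3680259, plus strand), from the same kind of assay, changed less. It had 1.42 and 0.722 CPM before heat, 4.64 and 4.15 CPM after 1 h and 1.43 and 1.02 CPM after 6 h. Both 1 h libraries were above all others, whereas the 0 h and 6 h libraries overlapped. It fell from 1 h to 6 h by 1.84 on the log2 scale (SE 0.337, edgeR adjusted p = 0.00141). At 6 h against 0 h the log2 difference was 0.19 (SE 0.377, edgeR adjusted p = 0.679).

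The largest falls, leaving aside genes with 3 or fewer counts in any heated library or under 10 CPM at their higher time, were those of Solyc02g081550.3 and Solyc12g042830.3, although the next gene in the order, at -8.10, lay within the error of both. Solyc02g081550.3 (chr2:45056913-45059617, plus strand) had 12.7 and 10.6 CPM before heat, 1353 and 1443 CPM after 1 h and 2.64 and 7.30 CPM after 6 h. It fell by 8.13 on the log2 scale (SE 0.442, edgeR adjusted p = 2.59e-06), to a level below that before heat. The difference between 6 h and 0 h was -1.22 (SE 0.369, edgeR adjusted p = 0.0201), and without 0 h replicate 1 it was not called (adjusted p = 0.0748). It was -2.14 without 6 h replicate 2 and -0.68 without 6 h replicate 1.

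Solyc12g042830.3 (chr12:61279958-61280197, minus strand) is a gene model of 240 bp. It had 0.125 and 0.281 CPM before heat, 547 and 524 CPM after 1 h and 1.03 and 2.79 CPM after 6 h. The fall was 8.12 on the log2 scale (SE 0.362, edgeR adjusted p = 1.07e-06), and at 6 h the gene was still above 0 h by 3.21 (SE 0.632, edgeR adjusted p = 0.00275). At 1 h the level per kb of span was 2232 CPM, against 517 CPM per kb for Solyc02g081550.3 and 2131 CPM per kb for Solyc09g015000.4. In all these strong falls 6 h replicate 2 held more of the transcript than 6 h replicate 1. The sizes of the falls moved with the library left out, for example between -9.04 and -7.58 for Solyc02g081550.3 and between -5.73 and -4.55 for Solyc09g074475.1.

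The largest rises under the same limits were those of Solyc07g006560.3 and Solyc07g055720.4, and they took different courses. The next rise in the order, at 4.73, lay within the error of the second. Solyc07g006560.3 (chr7:1361254-1363769, minus strand) had 6.34 and 11.2 CPM before heat, 0.663 and 0.587 CPM after 1 h and 31.7 and 32.6 CPM after 6 h. It was thus lowest at 1 h. The rise from 1 h to 6 h was 5.67 on the log2 scale (SE 0.318, edgeR adjusted p = 2.95e-06), and 6 h exceeded 0 h by 1.87 (SE 0.233, edgeR adjusted p = 0.000265).

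Solyc07g055720.4 (chr7:64126995-64128932, plus strand) rose at each step. It had 0.167 and 0.241 CPM before heat, 3.46 and 3.35 CPM after 1 h and 106.0 and 80.6 CPM after 6 h. The 1 h libraries already stood apart from the 0 h libraries, at 4.03 on the log2 scale (SE 0.331, edgeR adjusted p = 1.73e-05). The rise from 1 h to 6 h was 4.77 (SE 0.174, edgeR adjusted p = 5.18e-07), which put 6 h at 8.80 above 0 h (SE 0.253, edgeR adjusted p = 6.76e-07).

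**Figure D3:**
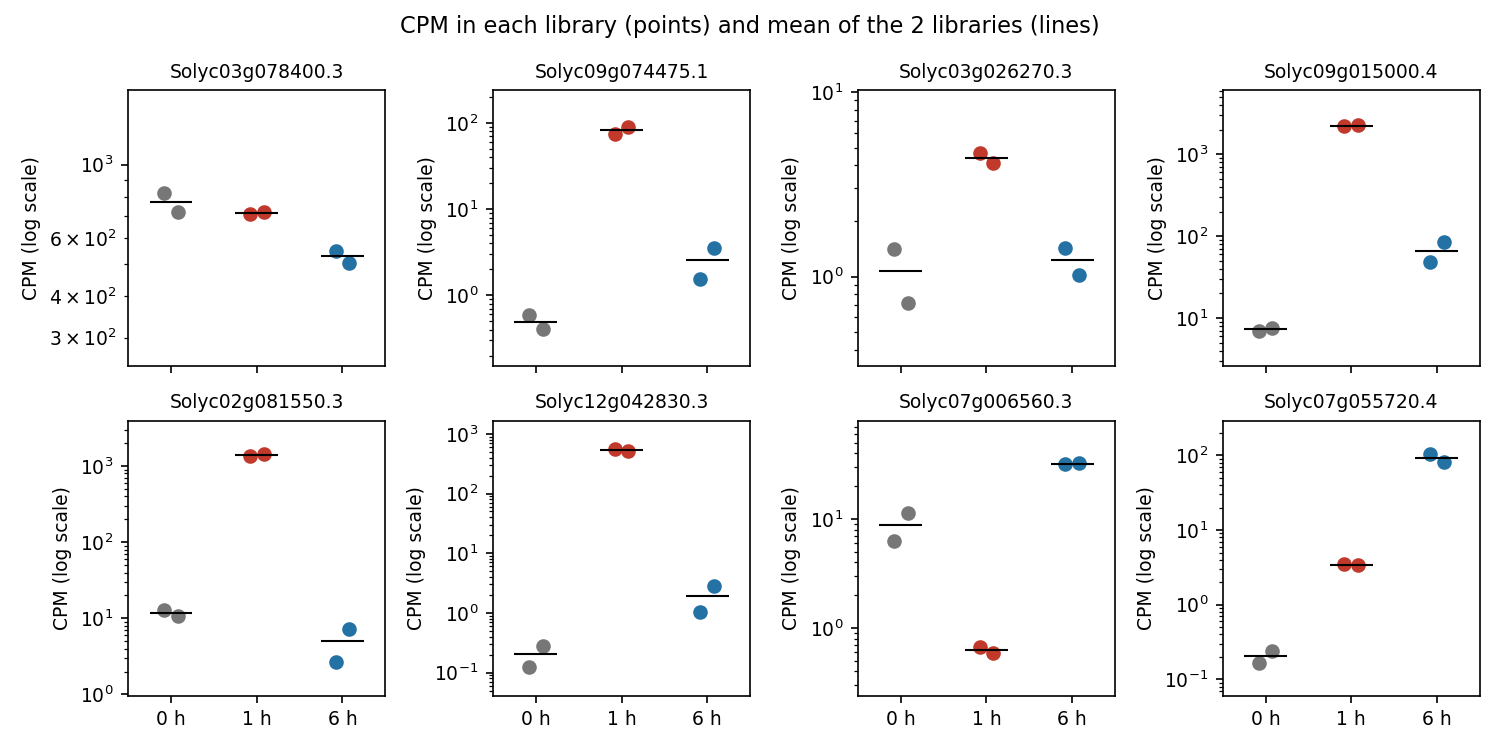
CPM of 8 genes (y axes, log scale, each with its own range) in the 2 libraries of each time on the x axis (points) and their mean (lines). Actin Solyc03g078400.3 varied little, the falls had their highest level at 1 h (2188 and 2254 CPM for Solyc09g015000.4), Solyc07g006560.3 was lowest at 1 h and Solyc07g055720.4 rose at both steps.

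The direction of change went with the level of a gene. When tested genes were split into deciles by mean CPM over the 6 libraries, the median log2 fold change went from 0.71 in the lowest decile to -0.38 in the highest. In the lowest decile 46.5% of genes were called higher and 19.3% lower, and in the highest 16.5% were called higher and 50.9% lower. Scaling to the total count moved the ends to 1.13 and 0.04, so that the sign in the highest decile turned while the order of both ends stayed. Across genes, which are not independent replicates and share the 6 libraries from which both measures were computed, Spearman's rho was -0.308 (n = 19123). Large falls were found at both ends of the levels, with 136 genes (7.11%) lower by at least 3 in the lowest decile, 20 genes (1.05%) in the sixth and 90 genes (4.70%) in the highest. In the lowest decile, with means of 0.737 to 2.99 CPM, a gene could pass the filter through the time at which it was high alone, so large changes there were in part fixed by the filter.

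Large changes were more frequent in short genes. Of the 1915 genes in the decile with spans of 60 to 880 bp, 111 (5.80%) fell by at least 3 and 32 (1.67%) rose by at least 3. In the decile with spans from 9677 to 64838 bp, 9 of 1913 genes (0.470%) fell and 2 (0.105%) rose by that much. The falls went down from each decile of span to the next. Rises of any size did not follow this order, since 29.8% of genes in the shortest decile and 37.9% in the longest were called higher.

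**Figure D4:**
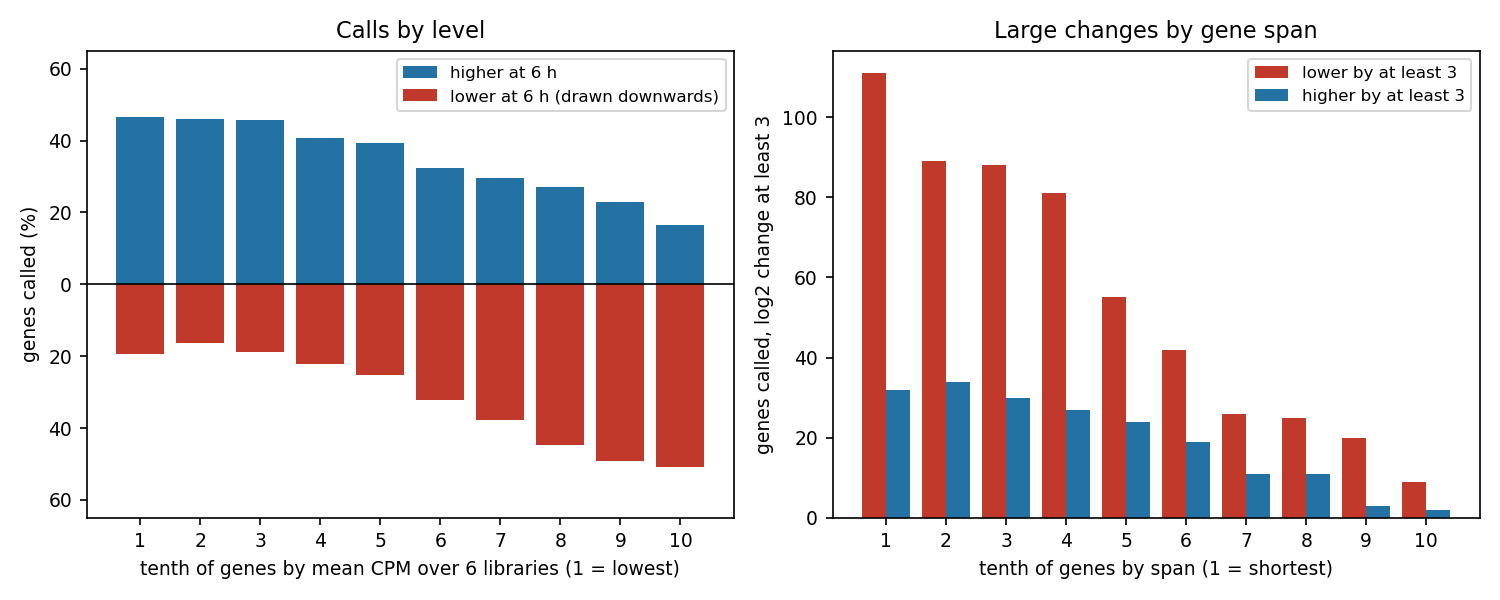
Left, share of genes called higher (blue, upwards) and lower (red, downwards) at 6 h, in % (y axis), by decile of mean CPM over 6 libraries (x axis); right, number of called genes with a log2 change of at least 3 (y axis) by decile of gene span (x axis). The share of rises goes from 46.5% to 16.5% with level, and falls of at least 3 go from 111 genes in the shortest decile to 9 in the longest.

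Rises and falls were found on all 12 chromosomes. The share of tested genes called higher lay between 30.7% on chromosome 5 and 38.1% on chromosome 11, and the share called lower between 27.7% on chromosome 11 and 33.4% on chromosome 8. Falls of at least 3 made up between 2.12% of tested genes on chromosome 11 and 4.21% on chromosome 9. These differences were not tested. Of 104 tested genes with a pan-genome identifier, 39 rose (37.5%) and 25 fell (24.0%), beside 34.7% and 31.7% of all tested genes. Counting used the strand, and of 930 tested genes that overlap a gene on the opposite strand, 338 rose (36.3%) and 287 fell (30.9%), which is near those shares of all tested genes.

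Within chromosomes, genes that moved strongly lay side by side in places. Stretches of at least 3 neighbouring tested genes that were all called the same way with a log2 change of at least 2 were counted. There were 33 such stretches of falls, which held 112 of the 1036 genes that fell by this much, and 10 stretches of rises, which held 32 of 870 genes. The longest had 7 genes for falls and 4 for rises. Scaling to the total count gave 20 stretches of falls and 27 of rises, so that their order turned. The stretches described next were chosen after their values were seen, by length or level, and are given with no test. Neighbouring copies of a gene family can share reads, so the split of counts among the members of a stretch is uncertain.

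The longest stretch lay at chr4:4281717-4357171, with 7 tested genes of spans between 309 and 1729 bp among 14 gene models. Their summed level was 7.30 and 4.74 CPM before heat, 43.6 and 40.9 CPM after 1 h and 2.43 and 1.95 CPM after 6 h. Each gene had between 2.76 and 14.1 CPM at 1 h, and in 4 of the 7 neither 6 h library exceeded 3 counts. The highest mean of any of them was 4.19 CPM at 0 h and 1.22 CPM at 6 h. With such sums and means most of these genes could pass the filter on counts only through the 1 h libraries. Their peak at 1 h was thus in large part fixed. A stretch at chr7:4656305-4993625 had nearly all of its reads at 1 h. Its genes passed the filter on counts only through the 1 h libraries, so this order was fixed. The 4 tested genes, of 13 gene models over 337 kb and all on the minus strand, had 0 CPM in both 0 h libraries, 39.4 and 33.6 CPM in sum at 1 h, and 0.124 and 0.349 CPM at 6 h.

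The stretch with the most reads was at chr6:50213867-50230009, where 4 tested genes of 465 to 1585 bp lay within 16.1 kb. Their sum was 83.0 and 71.6 CPM before heat, 6176 and 6333 CPM after 1 h and 608 and 796 CPM after 6 h. The sum at 6 h was thus above both 0 h libraries and below both 1 h libraries. At chr9:64456458-64469776, 4 genes summed to 31.6 and 19.2 CPM before heat, 529 and 528 CPM after 1 h and 29.2 and 34.2 CPM after 6 h, so that here the 0 h and 6 h libraries overlapped.

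The stretches of rises did not share 1 course. Some were lowest at 1 h. At chr7:57357993-57447297, 4 genes on the plus strand summed to 977 and 1043 CPM before heat, 110 and 104 CPM after 1 h and 1148 and 1038 CPM after 6 h. They were low only at 1 h, and the 6 h libraries overlapped those at 0 h. At chr8:66230951-66243707, 4 genes summed to 62.8 and 71.6 CPM before heat, 13.7 and 14.8 CPM after 1 h and 108 and 97.5 CPM after 6 h, with both 6 h libraries above both 0 h libraries. A smaller stretch of 3 gene models of 339 to 348 bp at chr3:55183970-55203838 summed to 91.0 and 75.3 CPM at 0 h, 12.6 CPM in each 1 h library, and 268 and 136 CPM at 6 h, where the replicates were far apart. Others did not dip at 1 h. At chr11:13567050-14171669, a stretch of 605 kb, only 3 of 38 gene models were tested, so these genes are neighbours only among tested genes. They summed to 90.7 and 88.3 CPM before heat, 134 and 122 CPM after 1 h and 654 and 727 CPM after 6 h. At chr9:64566634-64584388, 3 genes summed to 2.46 and 3.33 CPM before heat, 4.86 and 5.53 CPM after 1 h and 25.6 and 29.3 CPM after 6 h. Both of these stretches were higher in each 1 h library than in either 0 h library.

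**Figure D5:**
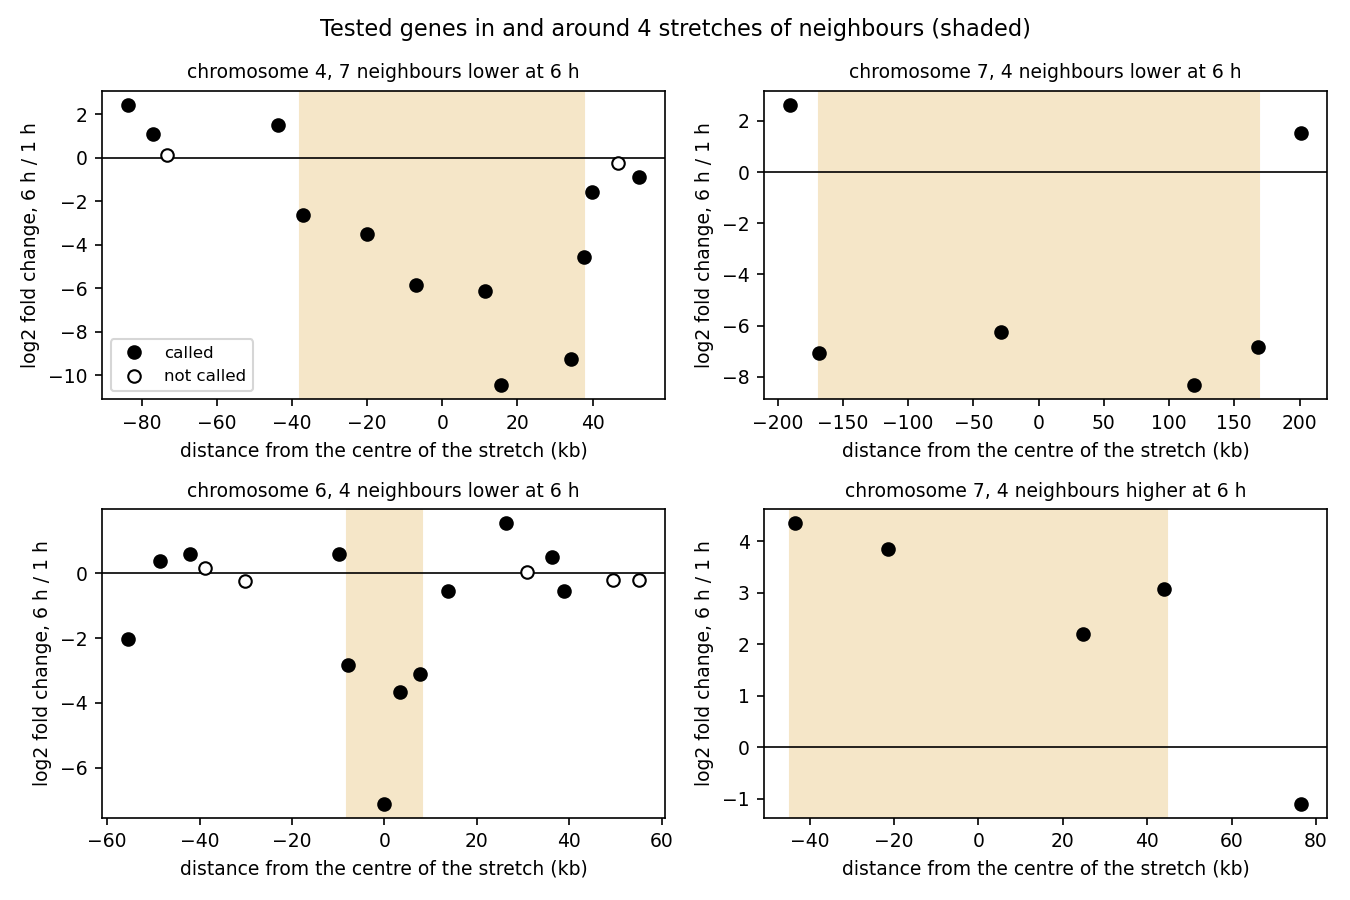
Log2 fold change from 1 h to 6 h (y axes) of tested genes by distance from the centre of a stretch in kb (x axes), for 4 stretches of neighbouring genes (shaded) on chromosomes 4, 7, 6 and 7, with called genes as filled and other genes as open points. In each panel the called genes next to the shaded stretch moved less than those in it or the other way. This was fixed by how the stretches were defined, so it says nothing about how sharp their edges were.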

How the data were processed

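Total RNA of the fourth leaves was made into stranded libraries and sequenced as single reads of 75 bp, with 2 biological replicates at 0, 1 and 6 h. The authors deposited raw read counts per gene, not normalized and not pooled, made with featureCounts 2.0.0 on the M82 gene models v1.1.0. The header names reverse-strand counting, a mapping quality of at least 30, and counting of multi-mapped reads and of reads over several genes. It also names removal of PCR duplicates and Bowtie alignments, whereas the methods of the study name STAR. It names the option for paired reads too, whereas the labels give single reads. Neither could be settled. A 1 h library had 14838 counts for the 240 bp of Solyc12g042830.3, so the effect of that removal is unclear. The deposited gene length, a value in bp, equals the span of all 35603 genes, so intronic reads were counted. Reads of near-identical genes may be split or lost.

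Genes that reached 50 counts in 2 or more libraries were tested in edgeR 4.0.16 (R 4.3.3) with TMM factors, in 1 fit to all 6 libraries with a coefficient per time (3 residual degrees of freedom). The two-sided quasi-likelihood F test was used, with Benjamini-Hochberg adjustment over 19123 genes. The SE was computed from the log2 fold change and the root of F. The script was tested on simulated data. The filter follows the study, whose tool, DESeq2, was an alternative (version 1.42.0). Differences between replicates were taken after adding 0.5 to CPM, on the log2 scale.

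The members and lists were chosen with earlier results of these data known. Named genes are those the study gives by identifier, and the 2 largest falls and 2 largest rises among called genes for which all 4 heated libraries exceeded 3 counts, with at least 10 CPM at the higher time. The planned gene lists (42 name patterns), leaf markers and promoter motifs were not used, since no names or sequences could be joined to the identifiers. Alternatives were RLE, upper-quartile and total count scaling, DESeq2, no filter, filterByExpr, a threshold of 0.01, a minimum log2 change of 1, only 4 libraries, the replicate block, overlapping genes left out, and each library left out.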

Additional observations from a re-analysis of the deposited data

How the results depend on the processing

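With 2 libraries per time, p-values rest on a spread shared among genes and times. Leaving out each library in turn gave between 4870 and 7018 rises and between 4837 and 6527 falls. Scaling to the total count gave 10248 rises and 3552 falls, and requiring a log2 change of at least 1 gave 3323 rises and 2790 falls. In the other alternatives both counts were within 1.5 times the main ones. DESeq2 called 12203 genes, and 94.2% of the edgeR calls were among them with the same sign. Without a filter on low counts 379 genes rose and 866 fell by at least 3, and edgeR's filterByExpr gave 306 rises of at least 3. Rises of at least 5 numbered 19 without 1 h replicate 1 and 19 without 6 h replicate 2, against 11, and 62 without a filter and 30 with filterByExpr, while falls of at least 5 went from 177 to 311 without a filter. The 2 largest falls and 2 largest rises were picked by the size of their change in these libraries, so keeping their calls was close to given. The 7 named genes other than actin kept their direction and call from 1 h to 6 h in all 17 alternatives. Actin kept both in 11 of 17, and a threshold of 0.01 and the minimum change of 1 ended its call besides the settings given above. For Solyc03g026270.3 the difference between 6 h and 0 h, which was not called, lay between -0.26 (without 0 h replicate 2) and 0.75 (without 0 h replicate 1) and was -0.07 without 6 h replicate 1.

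The replicate numbers are shared across times, but nothing says that equal numbers mark a shared batch, and only 2 pairs exist. The correlation of replicate differences between 1 h and 6 h was 0.20. With the replicate number as a block, 6594 genes rose and 6070 fell. The alternatives planned for gene lists could not be run, since no names were paired with the identifiers.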
